A study of Drosophila melanogaster with 60 samples.

Results

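The genes described here are 4 starch- and sugar-splitting enzymes of the fly: tobi (CG11909), the amylases Amy-p (CG18730) and Amy-d (CG17876), and the maltase Mal-B2 (CG14935). They were taken by name or CG number from the 7648 genes of the overexpression table and the 7444 genes of the RNAi table, and all 4 are listed in both. Expression was measured by 3′ RNA-seq, which counts reads near the poly(A) end, in 60 libraries from heads of Drosophila melanogaster. The overexpression experiment set Tim-gal4 flies (labelled conOE) against Tim-gal4; UAS-cbtFLAG flies (labelled OE), with 2 courses of 6 Zeitgeber times, or 12 libraries per genotype. In the RNAi experiment, Tim-gal4;UAS-Dcr2 flies (labelled conRNAi) were set against Tim-gal4, UAS-cbt RNAi flies (labelled RNAi), with 3 courses or 18 libraries per genotype. The label of the RNAi group lists no UAS-Dcr2, so that transgene and the RNAi construct cannot be told apart as sources of a difference. Zeitgeber time (ZT) is given in hours after lights on, and heads were taken at ZT3, ZT7, ZT11, ZT15, ZT19 and ZT23. All 4 genotypes carry the Tim-gal4 driver, built on the promoter of the clock gene timeless, so the transgenes are driven in clock cells while the libraries hold whole heads. The labels give neither age nor sex, and nothing in them says that replicate libraries came from separate flies, so each p-value below reflects only how far these libraries vary, which may be technical variation.

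Amylases cut starch and glycogen into short sugars, and alpha-glucosidases and maltases release glucose from those. In flies, amylase is best known as a gut enzyme whose expression is repressed by dietary glucose. The gene tobi, named as a target of brain insulin, encodes an alpha-glucosidase of glycoside hydrolase family 31 that is under the control of insulin-like peptides and adipokinetic hormone. Amy-p and Amy-d are the proximal and distal copies of an inverted duplication and encode near-identical family 13 enzymes. Mal-B2 belongs to the maltase branch of family 13. Cabut (cbt), the transcription factor targeted in both experiments, acts downstream of the sugar sensor Mondo with its partner Mlx (bigmax).

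The values are normalised read counts, that is reads divided by a size factor of the library. Library totals ranged from 468075 to 5512461 reads in the overexpression table and from 349019 to 13922764 in the RNAi table. The fewest reads behind a value in any library were 6 for tobi, 22 for Amy-p, 47 for Amy-d and 67 for Mal-B2. The targeted gene did not follow the labels. The cbt value was lower in all 12 libraries labelled OE (54.7 to 140) than in all conOE libraries (233 to 355), a log2 difference of -1.61 ± 0.12 (SE, n = 12 and 12; limma adjusted p = 3.4e-11). In the RNAi experiment the cbt difference was -0.06 ± 0.07 (SE, n = 18 and 18; limma adjusted p = 0.62). A 3′ read count cannot tell whether the transgene's own message was counted, and every direction below is therefore given between libraries as labelled.

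In the annotation of the current assembly (BDGP6), tobi lies on the minus strand of chromosome arm 3R and overlaps rha, a gene on the opposite strand. Amy-p (minus strand) and Amy-d (plus strand) lie on 2R with Spn53F between them. Mal-B2 lies on the plus strand of 2L beside Mal-B1 and overlaps Pde1c on the opposite strand. The authors' files use the older build dm3, so no coordinates are given.

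In the libraries labelled OE, tobi, Amy-p and Amy-d were far higher than in conOE, in every library and at every time, while Mal-B2 did not pass the test. In conOE, tobi was a low-abundance message with a lowest value of 9.20, a median of 31.8 and a highest value of 385. In the libraries labelled OE its lowest value was 1366, its median 2294 and its highest 4741. The lowest labelled library thus stood above the highest control, and the mean rose from 60.8 ± 103 to 2502 ± 944 (SD, n = 12 and 12), a 41.2-fold ratio of means. The log2 difference was 6.03 ± 0.30 (SE; 95% interval 5.42 to 6.65; limma adjusted p = 2.2e-14). In whole heads, more cells of a type and more RNA per cell cannot be told apart, here and in every result below.

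Amy-p had a lowest value of 46.0, a median of 124 and a highest value of 439 in conOE. It had a lowest value of 1333, a median of 2015 and a highest value of 4584 in the libraries labelled OE. The groups did not overlap, and the log2 difference was 4.19 ± 0.30 (SE, n = 12 and 12; 95% interval 3.57 to 4.80; limma adjusted p = 1.3e-11). Amy-d ran from 157 to 879 in conOE with a median of 280, and from 2019 to 7120 with a median of 3232 in the libraries labelled OE. Its groups did not overlap either, and it rose by 3.52 ± 0.25 on the log2 scale (SE, n = 12 and 12; 95% interval 3.01 to 4.03; limma adjusted p = 8.6e-12). The summed value of both copies, which does not depend on how reads were split between them, went from 505 ± 341 to 5912 ± 2233 (SD, n = 12 and 12), or 11.7-fold.

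Mal-B2 ran from 545 to 2907 with a median of 942 in conOE and from 557 to 1087 with a median of 809 in the libraries labelled OE. The groups overlapped, and the difference of -0.36 ± 0.22 (SE, n = 12 and 12; 95% interval -0.81 to 0.09) did not pass the test (limma adjusted p = 0.19). Mal-B2 had an SD of 703 in conOE against 163 in the libraries labelled OE. With edgeR on the recovered reads the difference passed at -0.54 (adjusted p = 0.0386). It was -0.87 (limma adjusted p = 0.000488) without conOE course 2, and 0.14 (limma adjusted p = 0.582) without conOE course 1.

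Differences were common in this experiment, so the members are read against that background. Of 7648 genes, 41.3% passed for genotype, 22.7% as higher and 18.6% as lower in the labelled libraries. In 319 genes, or 4.17%, all 12 labelled libraries lay above all 12 controls, as they did for tobi, Amy-p and Amy-d. The median log2 difference over all genes was 0.01. By size, tobi ranked 5, Amy-p 12 and Amy-d 20 among all increases, which is a description of these libraries.

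**Figure D1:**
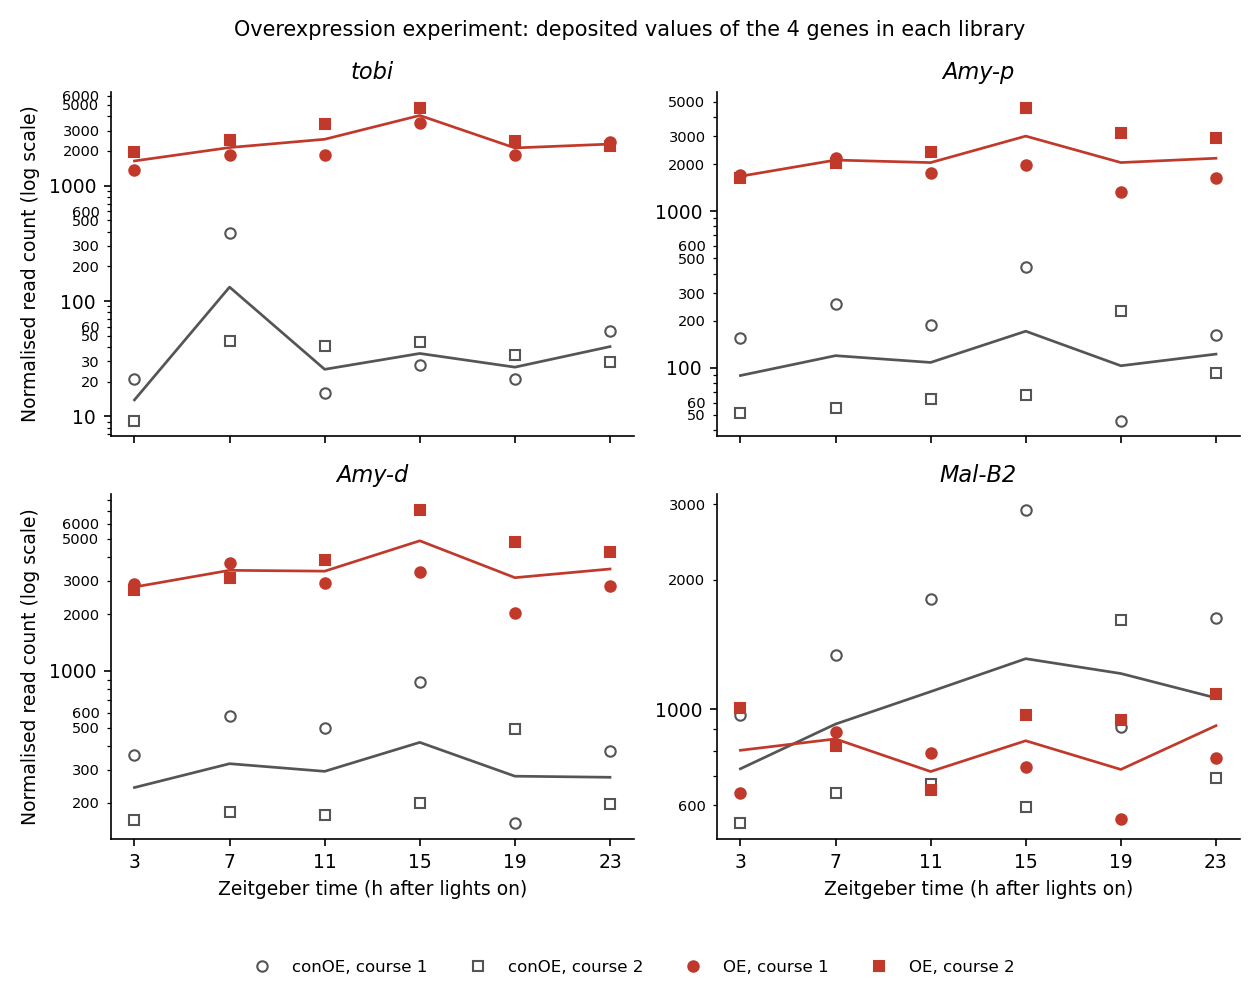
Normalised read counts (log scale) of the 4 genes by Zeitgeber time in hours, with 1 point per library, open symbols for conOE, filled symbols for OE, a marker shape per course and lines through the means of log2 values. The labelled libraries lie above all controls for tobi, Amy-p and Amy-d, while Mal-B2 overlaps and the conOE courses separate for the last 3 genes.

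The difference was tested at each time from 2 libraries per genotype with a spread shared over times. tobi passed at all 6 times, with log2 differences from 4.0 at ZT7 to 6.81 at ZT15. Amy-p passed at all 6 times with differences from 4.13 to 4.29, and Amy-d at all 6 times with differences from 3.40 to 3.66. Mal-B2 passed at none of them. Among all genes the share that passed as higher was 3.91% at ZT3, 2.76% at ZT7, 3.48% at ZT11, 3.99% at ZT15, 4.52% at ZT19 and 6.62% at ZT23. Without OE course 2, none of the amylase differences at single times passed (log2 2.86 to 4.24), and that of tobi at ZT7 was 3.8 (limma adjusted p = 0.0706). Without OE course 1, 3 of the 6 Amy-p differences and 2 of the 6 Amy-d differences did not pass, and all kept their sign.

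The size of the tobi difference at ZT7 rested on a single library. At ZT7 conOE held 385 in course 1 and 45.3 in course 2, whereas its other 10 libraries ranged from 9.20 to 54.9. Without conOE course 1 the ZT7 difference was 5.53, and without conOE course 2 it was 2.47. Whether the genotype difference depended on time was tested with all interaction terms together, and 0% of genes passed (limma; 0 genes at adjusted p under 0.05, 121 at an unadjusted p under 0.05, and 0 with a 24 h harmonic). For tobi the unadjusted p of these terms was 0.0433 (adjusted p = 1).

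Over the day, tobi in the libraries labelled OE held 1366 and 1962 at ZT3, 3473 and 4741 at ZT15, and 2395 and 2192 at ZT23. A 24 h harmonic gave an amplitude of 0.46 on the log2 scale with a peak at 14.6 h, which did not pass (limma; unadjusted p = 0.00801, adjusted p = 0.278). Without OE course 1 the amplitude was 0.56 and passed (limma adjusted p = 0.0318). Without OE course 2 it was 0.40 and did not pass (limma adjusted p = 0.2865). Each of these 2 fits rests on 1 course, with 1 library at each time. In conOE the amplitude was 0.48 with a peak at 8.52 h (limma adjusted p = 0.848). The shares of all genes that passed for a 24 h rhythm were 1.2% in conOE and 0.601% in OE, and none of the 4 members was among them. Without OE course 1, Amy-p and Amy-d in OE passed too, with amplitudes of 0.61 and 0.59 (limma adjusted p = 0.0286 and 0.0242). Without OE course 2 the amplitudes were 0.24 and 0.28 and did not pass (limma adjusted p = 0.4251 and 0.3691). These fits also rest on 1 library at each time, and the share of all genes that passed in them is not given.

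Within conOE, the amylases and Mal-B2 differed between the courses at each time, though not in 1 direction. Mal-B2 held 972, 1338, 1806, 2907, 912 and 1634 in course 1 from ZT3 to ZT23. It held 545, 639, 670, 592, 1611 and 692 in course 2. Course 1 was thus higher at 5 times and lower at ZT19, and Amy-p, Amy-d and the related maltase Mal-A5 showed the same order at every time. Amy-p, for example, held 439 and 66.8 at ZT15 but 46.0 and 231 at ZT19 in courses 1 and 2.

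Of all 7648 genes, 568 or 7.43% shared this order, and 453 or 5.92% showed its mirror image, with cbt in the latter. Across genes, the difference between the courses at ZT19 had negative correlations with that at each of the other 5 times (Pearson r -0.35 to -0.16), while the other times had positive correlations with each other (0.17 to 0.40). Genes within a library are not independent, so these are descriptions, and whether the ZT19 libraries of the courses are labelled in the other order was not tested. The genotype averages do not use the course numbers.

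In the test of courses within conOE, 0% of genes passed (limma; 663 genes at an unadjusted p under 0.05). Course 2 differed from course 1 by -1.08 for Amy-p, -0.96 for Amy-d and -1.01 for Mal-B2 on the log2 scale, with unadjusted p of 0.0390, 0.0187 and 0.00318 and an adjusted p of 0.563 for each. Without ZT19, the time whose sign opposed the others, these differences were -1.76, -1.48 and -1.37, given as a description only. For tobi the difference was -0.40 (adjusted p = 0.817). The genotype differences of Amy-p and Amy-d were larger than these course differences, and that of Mal-B2 was smaller.

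The split of amylase reads between the near-identical copies also differed between genotypes. Amy-p took 22.7% to 33.3% of the reads of both copies in conOE, with a median of 28.6%. It took 36.6% to 40.7% in the libraries labelled OE, with a median of 37.9%. The groups did not overlap, and the mean share was 10.2 percentage points higher in the labelled libraries (2-sided permutation test with 100000 resamples, p = 2e-05, the smallest they can give; adjusted p = 4e-05 over 2 such tests). The test treated libraries of all times and courses as exchangeable. How reads that fit both copies were assigned is not given in the sources used here, so the share describes the deposited assignment. In conOE the lowest share, 22.7%, was in the library with the lowest Amy-p value (46.0). The highest, 33.3%, was in that with the highest Amy-p value (439). Whether the share differs apart from the level was not tested. The share was chosen as a measure after the values were seen.

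**Figure D2:**
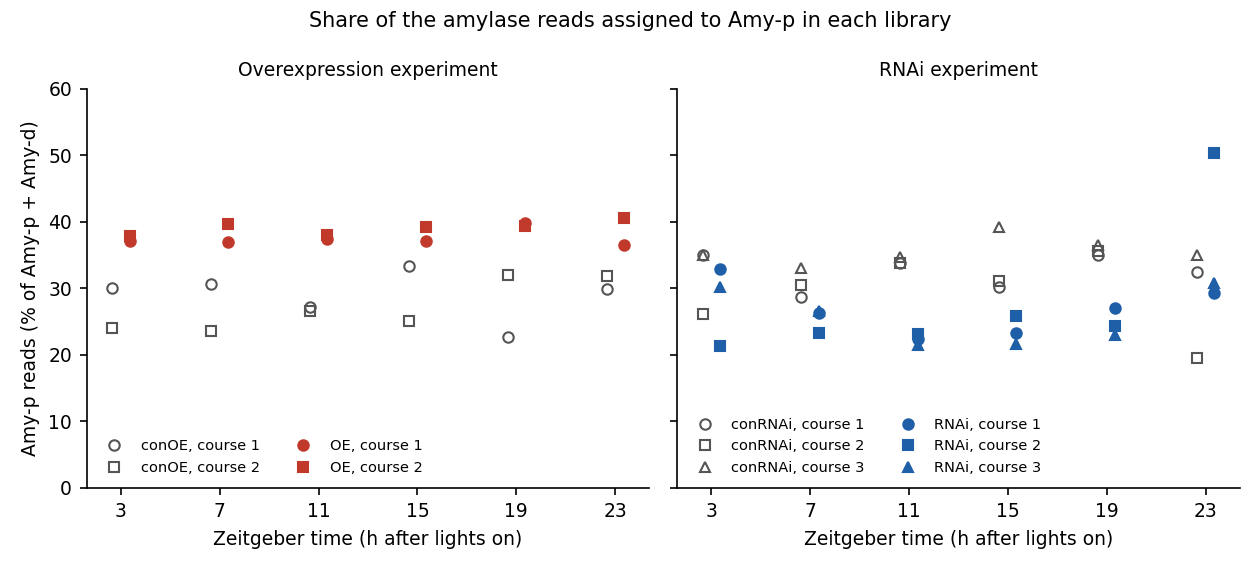
Reads assigned to Amy-p as a percentage of the reads of Amy-p and Amy-d (vertical axis from 0 to 60%) by Zeitgeber time in hours, with 1 point per library and a marker shape per course. OE libraries lie between 36.6% and 40.7%, above all conOE libraries, while RNAi libraries lie below the conRNAi libraries of the same time at ZT7, ZT11, ZT15 and ZT19 and overlap with them at ZT3 and ZT23, where RNAi course 2 reaches 50.4%.

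The opposite-strand neighbour rha moved with tobi. In conOE, rha ran from 2.09 to 171 with a median of 16.7, and in the libraries labelled OE from 374 to 1340 with a median of 849. It rose by 5.67 ± 0.32 on the log2 scale (SE, n = 12 and 12; limma adjusted p = 1.7e-13), with no overlap between groups. The rha value was 0.1 to 1.0 of the tobi value in conOE and 0.274 to 0.553 of it in the libraries labelled OE. The counting is not stated to use strand, so reads from the overlap of the genes cannot be assigned to either, and the separate values of tobi and rha are uncertain. Fur1, the neighbour on the other side of tobi, rose by 0.79 ± 0.12 (SE, n = 12 and 12; limma adjusted p = 6.2e-06).

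**Figure D3:**
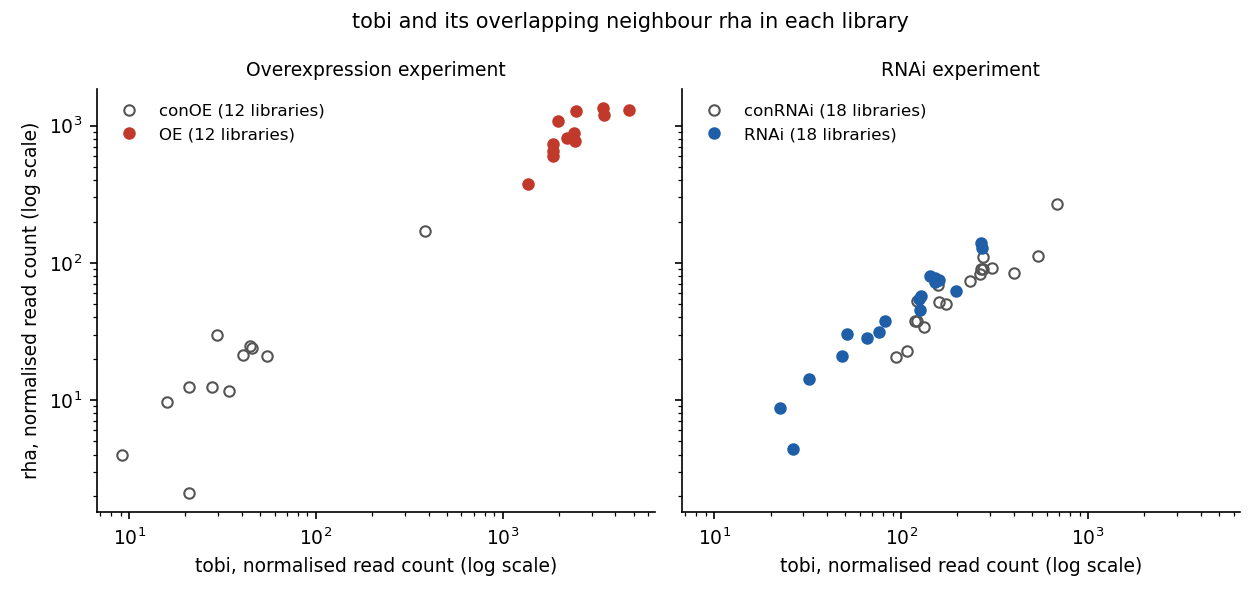
Normalised read counts of rha against tobi on log scales, with 1 point per library, open points for controls and filled points for the labelled genotype. In the overexpression experiment the labelled libraries form a separate group at tobi values of 1366 to 4741, and in the RNAi experiment the rha values are 0.209 to 0.434 of tobi in conRNAi and 0.167 to 0.595 in RNAi.

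By likeness, measured as Pearson's r of log2(value + 1) over the 24 libraries, the genes most like tobi were Lsp1beta (0.99), which encodes a larval serum storage protein, rha (0.99), the antimicrobial peptide gene Def (0.97), CG4757 (0.97) and cathD (0.97), which encodes the protease cathepsin D. Those most like Amy-p were Amy-d (0.998), Sid (0.98), the antimicrobial gene AttC (0.98), the cytochrome P450 gene Cyp28d1 (0.98) and BomBc2 (0.97). These r values mostly carry the genotype difference that all these genes share. In deviations from the mean of each genotype and time, tobi was most like Lsp1beta (0.88), rha (0.86), CG2233 (0.81), CG2493 (0.76) and Echs1 (0.75). There Amy-p was most like Amy-d (0.99), CG8112 (0.94), NimB2 (0.94), Spn42Da (0.94) and CG3700 (0.94). The largest deviations of tobi were those of conOE at ZT7 (385 and 45.3), where rha held 171 and 23.9. These libraries weigh on the r values of tobi in deviations.

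Mal-B2, whose smaller genotype difference did not pass in limma, was most like mEFTu2 (0.91), CG7766 (0.89), CG11899 (0.89), the trehalose synthesis gene Tps1 (0.88) and Cyp9b2 (0.88) over all libraries. In deviations it was most like Tmlh (0.96), Cyp6g1 (0.95), ALiX (0.95), Tps1 (0.94) and CG8112 (0.94), and it had an r of 0.89 with Amy-p. tobi had an r of 0.40 with Amy-p and 0.20 with Mal-B2 in the same deviations, so in these deviations the amylases followed Mal-B2 more closely than tobi. With 2 courses, the deviations of each genotype and time mirror each other, so the points are not independent. Mal-B2 varied more in conOE (SD 703) than in OE (163). In the RNAi experiment the r of deviations of Amy-p was 0.57 with Mal-B2 and 0.02 with tobi. All points share library depth and course.

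Marker genes of other cells moved in the same libraries, where 22.7% of all genes passed as higher and 18.6% as lower. All 8 measured antimicrobial peptide genes were higher in the libraries labelled OE (median log2 difference 4.59), with a summed level of 1101 to 6208 in conOE and 17129 to 48145 in OE. Of 10 head fat body markers, 6 rose and 1 fell (median 0.69), with summed levels of 128259 to 348096 and 137675 to 406696. These sums are mostly the yolk protein genes Yp1, Yp2 and Yp3 (conOE means 68562, 62335 and 70738), of which Yp3 fell. Lsp1beta rose from a mean of 971 to 36187 without overlap between groups, a log2 difference of 6.11 ± 0.39 (SE, n = 12 and 12). Lsp2 rose by 2.64 ± 0.32 and Obp99b by 2.53 ± 0.14 on the log2 scale. Of the 16 midgut genes listed as markers only 3 are in the table. LManI and LManII rose, while the protease gene Jon44E was lower without passing (-0.35, limma adjusted p = 0.328). The summed level of the 3 was 460 to 979 in conOE and 831 to 1719 in OE, most of it LManII. LManII held at least 435 in every library of this experiment, so the sum is no measure of gut tissue. Of 5 photoreceptor genes 4 fell (median -0.41), and all 3 glial markers fell (median -0.56). Of 6 blood cell markers 3 rose, of 5 neuronal markers 2 fell, and of 4 muscle markers none passed. The photoreceptor genes, which mark head tissue, summed to at least 23686 in every library. The defining gut proteases of the list, such as the trypsins alphaTry and betaTry, are not among the genes analysed here. The part of these changes in the results for tobi and the amylases was not tested.

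In the RNAi experiment, tobi and Mal-B2 were lower in the labelled libraries, and neither amylase passed the test over all libraries. tobi had a lowest value of 93.8, a median of 204 and a highest value of 681 in conRNAi. It had a lowest value of 22.4, a median of 125 and a highest value of 272 in the libraries labelled RNAi. The groups overlapped, the ratio of means was 0.480, and the log2 difference was -1.15 ± 0.21 (SE, n = 18 and 18; 95% interval -1.57 to -0.73; limma adjusted p = 3.3e-05). The shares of all 7444 genes that passed were 22.4% in all, 9.23% as higher and 13.1% as lower.

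Mal-B2 ran from 556 to 917 with a median of 712 in conRNAi and from 423 to 593 with a median of 502 in the libraries labelled RNAi. In the latter, 15 of 18 libraries lay below the lowest control. The difference was small and tight at -0.51 ± 0.06 (SE, n = 18 and 18; 95% interval -0.63 to -0.39; limma adjusted p = 3.6e-09), and it was negative at all 6 times. The SD of Mal-B2 was 111 in conRNAi and 49.6 in RNAi, well below that in conOE.

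Amy-p had a median of 192 in conRNAi (94.9 to 332) and of 128 in the libraries labelled RNAi (49.7 to 861). Its difference of -0.41 ± 0.20 (SE, n = 18 and 18; 95% interval -0.80 to -0.01) did not pass (limma adjusted p = 0.138). The call depended on which libraries entered. RNAi course 2 at ZT23, the shallowest library with 349019 reads, held 861, and the other RNAi libraries reached at most 221. Without it, an alternative chosen after seeing the data, the difference was -0.54 and passed (limma adjusted p = 0.0139). It was -0.62 (limma adjusted p = 0.00252) with libraries under 1000000 reads left out, and -0.70 (limma adjusted p = 0.00761) without conRNAi course 2. Without the whole of RNAi course 2 it was -0.43 and did not pass (limma adjusted p = 0.0842).

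The same library stood apart in a further maltase gene. Mal-A1, named here after its values were seen, held 681 in RNAi course 2 at ZT23 and 12.1 to 54.5 in the other 35 libraries. Amy-d had its highest value of both groups there, at 846. Irc, among the genes most like Amy-p below, held 644 there against 246 to 494 elsewhere. CG15605, also among them, held 37.4 there against 2.22 to 30.9 elsewhere. One read was worth 7.49 units in this library, so the CG15605 value rests on few reads and does not set the library apart. LManII, on the list of midgut markers, held 539 there, within its range of 471 to 1152.5 elsewhere. It was abundant in every head library, so its level is no measure of gut tissue there.

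Amy-d had a median of 364 in conRNAi (186 to 752) and of 406 in the libraries labelled RNAi (172 to 846). Its difference was -0.0037 ± 0.13 (SE, n = 18 and 18; 95% interval -0.26 to 0.25; limma adjusted p = 0.988), and it was positive under both other scalings, at 0.0081 and 0.0052. The summed value of both copies was 610 ± 216 and 583 ± 312 (SD, n = 18 and 18), with a difference of -0.12 ± 0.14 (SE; limma adjusted p = 0.622). Amy-p took 19.5% to 39.3% of the amylase reads in conRNAi with a median of 33.8%, and 21.4% to 50.4% with a median of 25.1% in the libraries labelled RNAi. The mean share was lower by 5.67 percentage points (2-sided permutation test with 100000 resamples, p = 0.00522, adjusted p = 0.00522 over 2 such tests), and the difference was -8.16 points with libraries under 1000000 reads left out. Without conRNAi course 3 it was -4.13 points (p = 0.0863 by permutation).

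**Figure D4:**
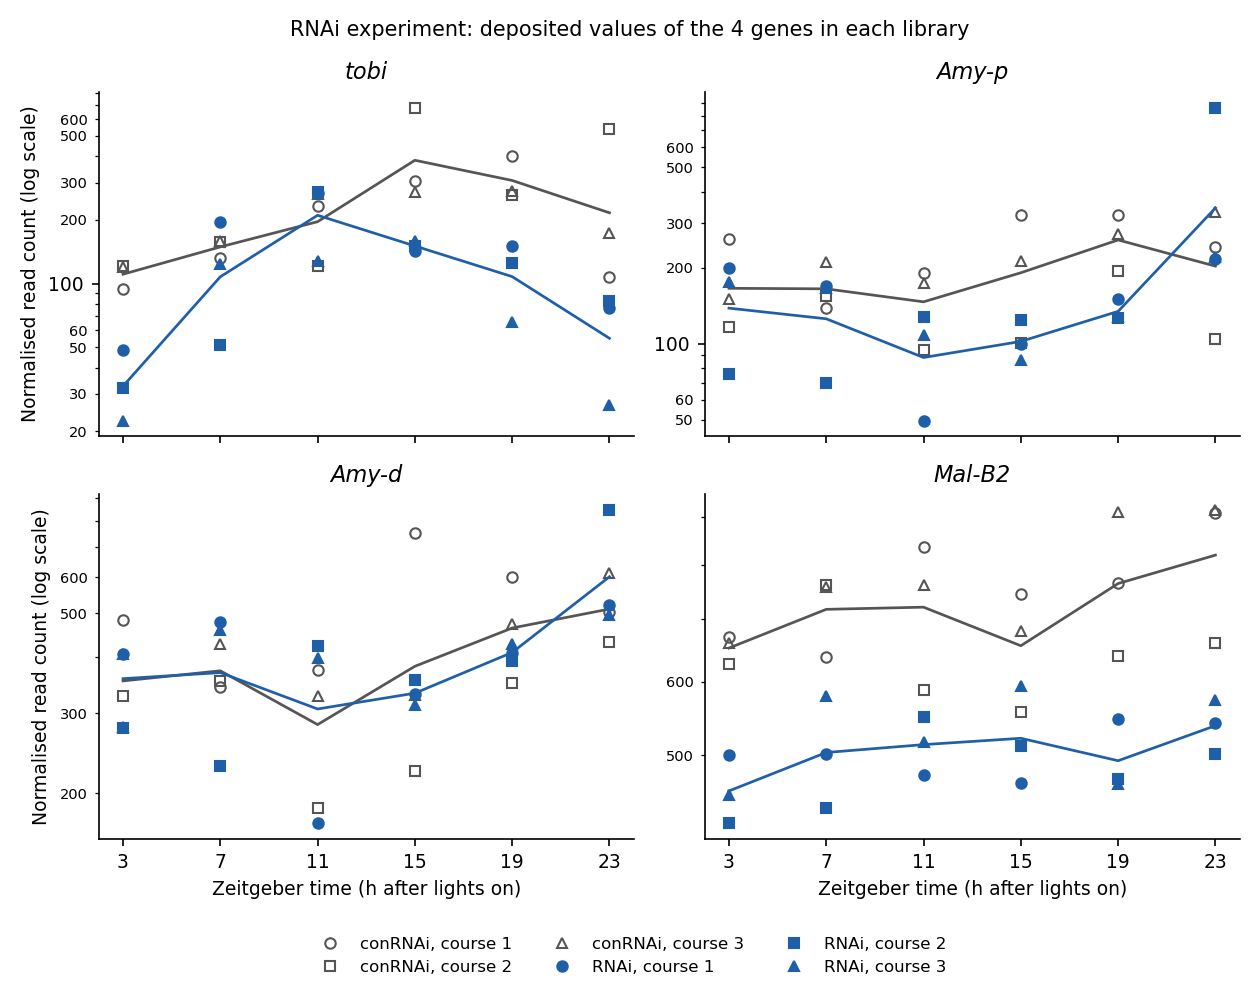
Normalised read counts (log scale) of the 4 genes by Zeitgeber time in hours in the RNAi experiment, with 1 point per library, a marker shape per course and lines through the means of log2 values. tobi is lower in RNAi at 5 of 6 times and about level at ZT11, Mal-B2 is lower at all 6, and the Amy-p value of 861 at ZT23 stands apart.

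By time, the tobi differences ran from 0.10 at ZT11 to -1.95 at ZT23. tobi held 93.8, 121 and 119 at ZT3 in conRNAi against 48.2, 32.2 and 22.4 in RNAi, a log2 difference of -1.73 (limma adjusted p = 0.0204). At ZT11 it held 234, 121 and 267 against 268, 272 and 128, a difference of 0.10 (limma adjusted p = 0.998), and the groups overlapped. At ZT23 it held 108, 539 and 174 against 76.3, 82.4 and 26.5, a difference of -1.95 (limma adjusted p = 0.00708).

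The differences at ZT7 (-0.46), ZT15 (-1.34, adjusted p = 0.0997) and ZT19 (-1.50, adjusted p = 0.0610) did not pass. The genotype-by-time terms of tobi had an unadjusted p of 0.0206 as 6 times and of 0.00360 as a 24 h harmonic, and no gene passed either after adjustment (limma adjusted p = 1 for tobi; 0% of genes called; 336 and 313 genes at an unadjusted p under 0.05). The difference between times is therefore not established. Mal-B2 passed at ZT3 (-0.51), ZT19 (-0.63) and ZT23 (-0.61), and neither amylase passed at any time. The share of all genes that passed as lower was 3% at ZT3, 0.913% at ZT7, 0.806% at ZT11, 2.47% at ZT15, 2.1% at ZT19 and 4.1% at ZT23. With each of the 6 courses left out in turn, the ZT3 and ZT23 calls of tobi were lost 3 times and 1 time (-1.47 to -1.72 and -1.30). The ZT3, ZT19 and ZT23 calls of Mal-B2 were lost 5, 3 and 3 times, at differences of -0.45 to -0.63.

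tobi was the only one of the 4 members with a daily rhythm that passed, and it did so in both genotypes of the RNAi experiment. In conRNAi its amplitude was 0.82 on the log2 scale with a peak at 16.6 h (n = 18; limma adjusted p = 0.00445), where 4.1% of all genes passed. In the libraries labelled RNAi the amplitude was 1.18 with a peak at 13.1 h (n = 18; limma adjusted p = 0.000894), where 2.18% passed. The conRNAi call was lost without course 1 (amplitude 0.75, limma adjusted p = 0.134) and without course 3 (0.94, limma adjusted p = 0.0736).

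In the authors' deposited table, whose rhythm test the headers do not name, the q-value of tobi was 0.000122 in conRNAi with a phase of 14 h, and 0.000184 in RNAi with a phase of 12 h. The authors' deposited table gives tobi a q-value of 1 in conOE and 0.456 in OE. rha had amplitudes of 0.93 in conRNAi and 1.39 in RNAi (limma adjusted p = 0.00231 and 0.000762). Amy-p in RNAi had an amplitude of 0.75 with a peak at 23.5 h that did not pass (limma adjusted p = 0.0866); it was 0.45 with libraries under 1000000 reads left out, and it passed without RNAi course 2 (0.74, limma adjusted p = 0.00496). The authors' deposited table gives Amy-p a q-value of 0.00410 in RNAi and 0.853 in conRNAi. Amy-p in conRNAi passed without course 2 (0.44, limma adjusted p = 0.0290).

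The courses of conRNAi differed in 5.39% of genes, Amy-p and Amy-d among them. The call of Amy-d was lost without ZT11, ZT15 or ZT19 (limma adjusted p = 0.126, 0.119 and 0.108), and Mal-B2 passed without ZT7 (limma adjusted p = 0.0146). The mean of Amy-p over the day was 247 in course 1, 128 in course 2 and 226 in course 3 (limma adjusted p = 0.00520). The mean of Amy-d was 510, 312 and 409 (limma adjusted p = 0.0288). Mal-B2 had means of 761, 639 and 782 (limma adjusted p = 0.0699), and tobi had means of 213, 314 and 211 (limma adjusted p = 0.543).

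rha fell with tobi, by 0.64 ± 0.22 on the log2 scale (SE, n = 18 and 18; limma adjusted p = 0.0326), but this call was not stable. It was lost with edgeR (-0.43, adjusted p = 0.0974), with 1 mean per course (limma adjusted p = 0.127) and with libraries under 1000000 reads left out (-0.45, limma adjusted p = 0.0633). It was also lost without conRNAi course 2 (-0.45) or 3 (-0.61), without RNAi course 2 (-0.70) or 3 (-0.33), and without ZT3, ZT15, ZT19 or ZT23 (-0.60 to -0.48). rha was first in likeness to tobi over the 36 libraries (r = 0.93), followed by Lsp1beta (0.78), the odorant-binding protein gene Obp99a (0.75), Cys (0.75) and Cyp18a1 (0.74). In deviations tobi was most like rha (0.90), Papst2 (0.69), the storage protein gene Lsp2 (0.66), Sodh1 (0.64) and Droj2 (0.64). Amy-p was most like Amy-d (0.85), Nepl21 (0.71), Ect3 (0.70), MetRS (0.70) and CG4306 (0.69), and in deviations like Amy-d (0.87), CG12093 (0.77), Irc (0.77), LManII (0.74) and CG15605 (0.72), the last the gene next to Amy-d. Mal-B2 was most like Idgf6 (0.90), Gbp2 (0.88), CG42369 (0.87), fat-spondin (0.86) and CG1468 (0.86), and in deviations like DNaseII (0.75), Idi (0.74), CG12237 (0.74), EMC4 (0.73) and Cyp9h1 (0.72).

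Of 10 head fat body markers in this experiment, 6 fell and 1 rose (median -0.45), beside 13.1% and 9.23% of all genes. Their summed levels, mostly Yp1, Yp2 and Yp3, were 127902 to 314861 in conRNAi and 93559 to 372291 in RNAi. Lsp1beta fell by 1.58 ± 0.15 and Lsp2 rose by 1.28 ± 0.22 on the log2 scale (SE, n = 18 and 18; limma adjusted p = 6.4e-11 and 1.4e-05). Of 7 antimicrobial genes 1 fell and 6 did not pass, with a summed level of 1208 to 12551 in conRNAi and 397 to 11161 in RNAi. Of the 16 midgut genes 2 are in the table, with a summed level of 692 to 1206 in conRNAi and 506 to 716 in RNAi, and LManII fell by 0.59 ± 0.07 (SE, n = 18 and 18; limma adjusted p = 4e-09). LManII was abundant in every head library, so neither the sum nor the fall of LManII is a measure of gut tissue. Of 6 blood cell markers 2 rose, of 5 neuronal markers 3 rose and 1 fell, of 5 photoreceptor markers 2 fell, and 1 of 3 glial and 1 of 4 muscle markers rose. Their part in the results for tobi and Mal-B2 was not tested.

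Other enzymes of the same families had smaller differences than tobi and the amylases in the overexpression experiment. There 5 of 7 measured family 13 genes rose and none fell (median log2 difference 0.61), beside 22.7% and 18.6% of all genes. Beside the amylases these were Mal-A5 (0.78 ± 0.10), Mal-B1 (0.61 ± 0.24) and the amylase-related gene Amyrel (0.44 ± 0.15; SE, n = 12 and 12; limma adjusted p = 5.4e-07, 0.0391 and 0.0229). Mal-A8, at -0.44 (limma adjusted p = 0.176), passed as lower with edgeR, as did Mal-B2 (-0.74 and -0.54, adjusted p = 0.00817 and 0.0386). The calls of Mal-B1 and Amyrel were not stable. Mal-B1 did not pass under TMM scaling (limma adjusted p = 0.0503) or with edgeR (adjusted p = 0.0689). With 1 mean per course neither Mal-B1 nor Amyrel passed (limma adjusted p = 0.167 and 0.0746). Mal-B1 was also lost without conOE course 2 (0.19), OE course 2 (0.33), ZT3, ZT7, ZT15 or ZT23. Amyrel was also lost without conOE course 1 (0.35) or 2 (0.54), OE course 1 (0.25), ZT7 or ZT19. Without conOE course 2, 3 family 13 genes rose and 1 fell. Of 3 family 31 genes tobi alone rose; GCS2alpha, which trims sugars from glycoproteins, differed by 0.14 (limma adjusted p = 0.0558) and CG33080 by -0.14 (limma adjusted p = 0.400). In the RNAi experiment 2 of 7 family 13 genes fell, Mal-B2 and Mal-A5 (-0.24 ± 0.06, limma adjusted p = 0.00103), and none rose (median -0.0037). Of all genes, 13.1% passed as lower there and 9.23% as higher. Of the 3 family 31 genes tobi fell; GCS2alpha, at 0.12 (limma adjusted p = 0.0593), passed as higher under both other scalings.

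Of 6 measured glycogen and trehalose genes, 5 passed in the overexpression experiment and 3 in the RNAi experiment, beside 41.3% and 22.4% of all genes. In the libraries labelled OE, 4 of the 6 rose (median 0.66): the branching enzyme AGBE (0.79 ± 0.11), glycogen synthase Glys (0.73 ± 0.10), glycogen phosphorylase Glyp (0.71 ± 0.09) and phosphoglucomutase Pgm1 (0.61 ± 0.10). Trehalase (Treh), which splits the blood sugar trehalose, fell by 0.62 ± 0.09, and Tps1 did not pass (-0.22). In the libraries labelled RNAi, 2 of 6 rose, Glyp (0.86 ± 0.06) and Treh (0.40 ± 0.05), and Pgm1 fell by 0.47 ± 0.08 (median of the 6 -0.0029). The trehalose transporter Tret1-1 rose in both, by 0.75 ± 0.08 and 0.40 ± 0.06 (SE; n = 12 and 12, and n = 18 and 18). It was 1 of 2 that rose among 3 measured sugar transporters in the overexpression experiment, with sut1 (0.85 ± 0.22), while Tret1-2 differed by 0.48 (limma adjusted p = 0.0649). It was the only one of 2 that passed in the RNAi experiment, where sut2 differed by 0.12 (limma adjusted p = 0.742).

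**Figure D5:**
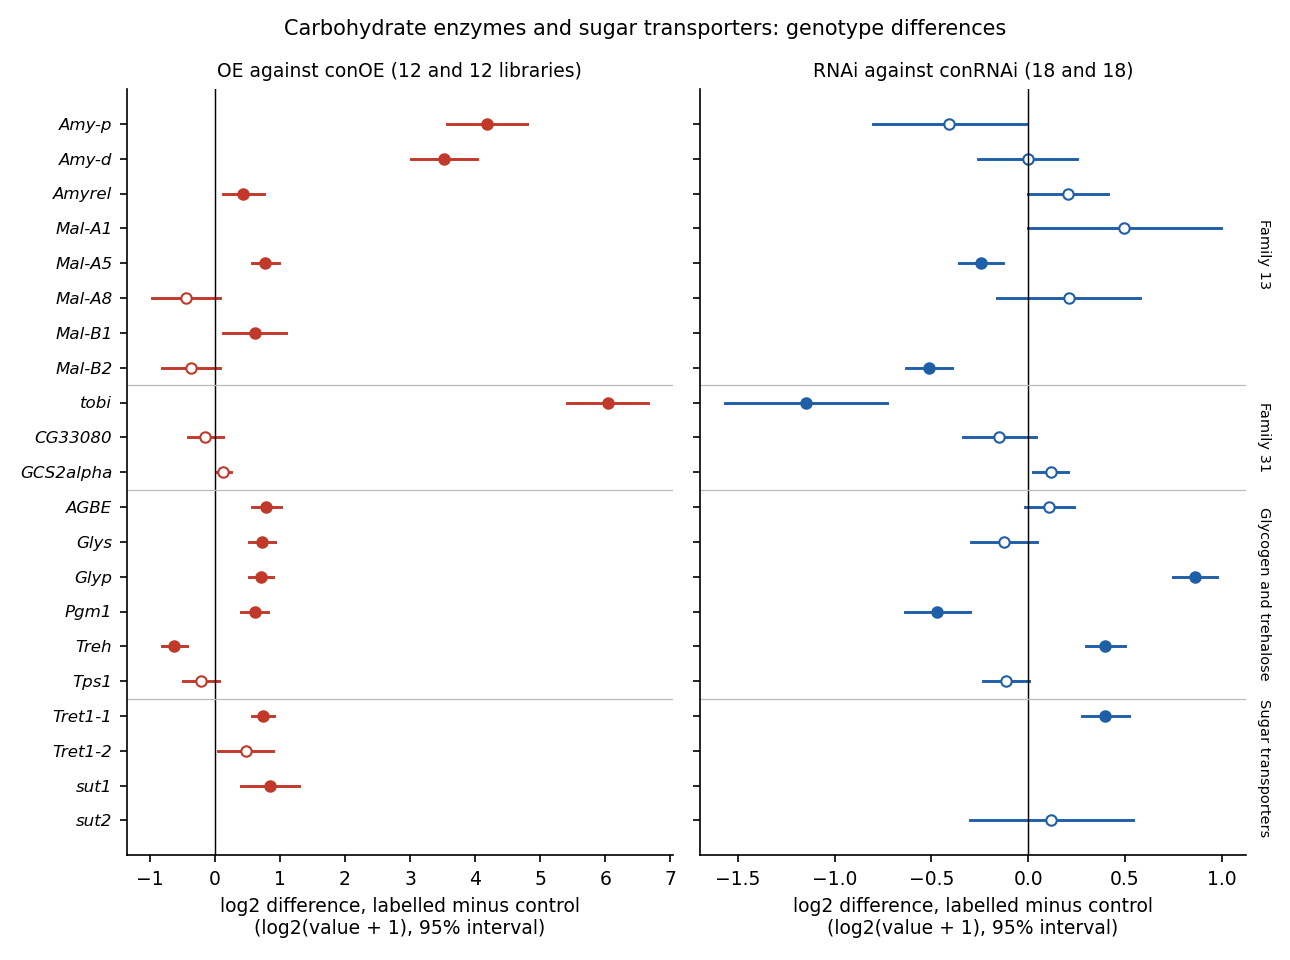
Log2 differences between the labelled and control libraries with 95% intervals for the measured genes of 4 lists, in the overexpression experiment (left) and the RNAi experiment (right), whose horizontal scales differ. Filled points passed at a limma adjusted p under 0.05; tobi, Amy-p and Amy-d lie at 6.03, 4.19 and 3.52 on the left, and on the right tobi lies at -1.15.

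A further list held genes of sugar sensing, activin and insulin signals, chosen as possible inputs to digestive enzymes. Of 17 measured, 4 rose and 6 fell in the libraries labelled OE, beside 22.7% and 18.6% of all genes. The share that rose was thus near that of all genes. The activin ligand daw, a repressor of amylase in the fly gut, fell by 0.72 ± 0.12 (SE, n = 12 and 12; limma adjusted p = 2.6e-05), from 54.3 ± 9.64 to 32.7 ± 6.74 (SD, n = 12 and 12). Whether daw has a part in the amylase results was not tested. The adipokinetic hormone receptor AkhR fell by 1.15 ± 0.19, and foxo (-0.42), chico (-0.53) and Ilp6 (-0.38) fell besides cbt. The insulin-binding protein gene ImpL2 (1.27 ± 0.12), Ilp5 (0.91 ± 0.14), Ilp3 (0.66 ± 0.21) and bigmax (0.28 ± 0.11) rose, the last without passing under either other scaling. With 1 mean per course, Ilp6, chico and the transporter gene sut1 did not pass (limma adjusted p = 0.0576, 0.0708 and 0.0512), and without OE course 2 neither did Ilp3 (0.38, limma adjusted p = 0.258).

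In the RNAi experiment 4 of 16 rose and 1 fell, beside 9.23% and 13.1% of all genes. The ligand daw rose by 0.42 ± 0.10 (SE, n = 18 and 18; limma adjusted p = 0.00147), from 77.2 ± 15.6 to 103 ± 19.8 (SD, n = 18 and 18). ImpL2 (0.78 ± 0.09), Ilp5 (0.72 ± 0.09) and Ilp2 (0.26 ± 0.06) also rose, and AkhR fell by 0.35 ± 0.10. With 1 mean per course, Ilp2, AkhR and Mal-A5 did not pass (limma adjusted p = 0.0756, 0.0628 and 0.147), and AkhR also lost its call without conRNAi course 1 (-0.32, limma adjusted p = 0.0621). Mondo and the sugar-responsive factor sug did not pass in either experiment. The part of the listed signal genes in the results for the 4 enzymes was not tested.

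Set side by side, the control levels of the members differed between the experiments, whose tables were normalised separately and not compared by a test. The median of tobi was 31.8 in conOE and 204 in conRNAi, that of Amy-p 124 and 192, that of Amy-d 280 and 364, and that of Mal-B2 942 and 712. The highest conOE value of tobi, 385, lay within its conRNAi range of 93.8 to 681, and the other 11 conOE libraries lay below that range.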

How the data were processed

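Total RNA of fly heads was sequenced from the 3′ ends, and reads were aligned to build dm3 with Bowtie and TopHat, per the submitters' processing notes. Their versions are not given, nor whether counting used strand. The authors deposited 1 table per experiment with a normalised signal per transcript and library, made by dividing each count by a factor for library size. Undoing that division gave whole reads (within 0.05) in all libraries but 1 value of 1 library. Only transcripts with reads in every library are listed, so genes silent in any library are not analysed here. The deposited tables also hold the authors' rhythm q-values. Libraries were grouped by their labels.

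A gene is represented by its transcript of highest mean value, and names were matched through the reference annotation. The 2 listed Mal-B2 transcripts hold the same values. Because the tables hold normalised values, log2(value + 1) was fitted with limma-trend (limma 3.58.1, R 4.3.3) over all genes with a mean of at least 1, with Zeitgeber time as a factor, no replicate block, Benjamini-Hochberg adjustment and a threshold of 0.05. Fold changes are on the log2(value + 1) scale, which understates changes of low genes. The alternatives were edgeR 4.0.16 quasi-likelihood tests on the recovered reads, which called 3474 and 1913 genes, other scalings, pseudocounts and filters, left-out courses and times, and a replicate block. DESeq2 was planned for a count table and was not run. The scripts were tested on simulated data. The Amy-p share was tested with a permutation test (scipy 1.17.1). For 48 replicate pairs, a chi-square test over genes with at least 20 reads gave 3.66 to 32.1 per degree of freedom, so no pair agreed within sampling noise. One read was worth up to 8.77 units in the overexpression data and 7.49 in the RNAi data, which limits the precision of tobi and rha in the shallowest libraries.

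Replicate numbers were not treated as pairing the libraries, and the fits were planned without a replicate block. Not every same-numbered pair had a correlation of its deviations above 0.1. These were -0.21 in the overexpression experiment and 0.0033, 0.25 and 0.32 in the RNAi experiment. With 2 courses, the value of -0.21 fixes 0.21 for the crossed courses. It also includes ZT19, where the conOE courses differed in the opposite direction, so it cannot decide whether the numbers pair. The 4 genes, the lists and the markers were chosen with earlier results of these data known. Named are the 4 genes, every listed gene that passed or was among the 3 lowest p-values of its list (for marker lists, examples), and for likeness the 5 genes with the highest r.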

Additional observations from a re-analysis of the deposited data

How the results depend on the processing

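tobi, Amy-p and Amy-d kept their increase and their call in the overexpression experiment under every alternative run (log2 5.79 to 6.44, 3.65 to 4.73 and 3.04 to 4.0), as did the decreases of tobi (-1.40 to -0.93) and Mal-B2 (-0.60 to -0.46) in the RNAi experiment. Mal-B2 in the overexpression experiment was -0.54 and passed with edgeR, and ran from -0.87 to 0.14 with a course left out. Amy-d in the RNAi experiment, not called, turned positive with median-ratio scaling (0.0081), TMM scaling (0.0052), without ZT15 (0.035) and without ZT19 (0.031), and ran from -0.19 to 0.17 with a course left out. Amy-p in the RNAi experiment passed without ZT23 (-0.64), with libraries of at least 1000000 reads (-0.62), without RNAi course 2 at ZT23 (-0.54), and ran from -0.70 to -0.23 with a course left out. With a course left out, the tobi difference in the RNAi experiment ran from -0.25 to 0.46 at ZT11 and from -0.89 to 0.066 at ZT7, its amplitude from 0.40 to 0.56 in OE and from 0.75 to 0.94 in conRNAi, and the Amy-p share from -7.21 to -4.13 percentage points. The counts of called genes were 1986 and 672 with 1 mean per course, which leaves fewer samples, and ran from 1067 (without conRNAi course 1) to 1899 in the RNAi experiment with a course left out. The cause of the other changes was not tested.

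With the replicate block, 3158 and 1821 genes were called and tobi stayed at 6.03 in the overexpression experiment. With conOE course 1 crossed to OE course 2, chosen after seeing the data, 3257 were called. In the RNAi experiment conRNAi course 1 had a higher correlation with RNAi course 3 than with its own number, and the other courses had their highest with their own. At 349019 to 13922764 reads per library, single-time differences rest on 2 or 3 libraries a genotype.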
